A study of Mus musculus with 6 samples.

Results

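The 10 Notch pathway genes described here are the receptors Notch1, Notch2, Notch3 and Notch4, the ligands Dll1, Dll4, Jag1 and Jag2, the target gene Hes1, and Atoh1, which Hes1 represses. They were chosen by name, with earlier results of these data known. All probes whose RefSeq accession leads to these symbols were taken: 11 probes of 56605, with Notch4 represented by 2 probes and every other gene by 1, out of 23462 genes named on the array. Colon RNA of 6 male mice, 3 controls and 3 with an Islr knockout, was hybridised to 1 single-colour Agilent array per animal. By their source label, both groups had received 3.5% dextran sulfate sodium (DSS), an epithelial irritant, in the drinking water for 5 days and then recovered for 1 day, although another field of the labels states that no treatment was given. The sources used here do not give the strain, the age, the design of the Islr allele or whether it was deleted in all cells, and the design text, which speaks of flow separation, names no gate. The Islr product is an extracellular protein with leucine-rich repeats, made by stromal cells.

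Notch signalling passes between touching cells: a Delta-like (Dll) or Jagged (Jag) ligand on one cell pulls on a receptor on its neighbour, the receptor is cut by an ADAM protease and by gamma-secretase, and its intracellular part enters the nucleus and activates genes together with RBPJ and Mastermind proteins. In intestinal crypts, Notch activity raises Hes1, which silences Atoh1, and cells that escape it express Atoh1 and become goblet or other secretory cells. In blood vessels, Dll4 and Notch1 or Notch4 act in endothelium, and Notch3 acts in the pericytes and smooth muscle around it.

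Each level below is the log2 of the processed signal of a spot relative to its own array, so that 0 is the array's 75th percentile, and each difference is knockout minus control on that log2 scale. Levels of different probes cannot be ranked against each other. Differences were tested with limma, and adjusted p-values are Benjamini-Hochberg values over 35351 tested probes, called under 0.05. Values with marked spots kept come from a separate fit over 40172 probes. Counts of genes take each gene's brightest probe among those tested. Between 69.4% and 75.4% of the spots of an array were well above background. Between 3.26% and 16.0% carried an outlier mark from the scanner software and were left out, with the highest shares on control replicate 1 and knockout replicate 1. Each genotype filled its own slide row, so slide position and genotype cannot be told apart. Nothing in the labels says more of how the animals were kept or paired, so the p-values measure the spread between these 6 samples. The single Islr probe read 1.24 and 1.21 in control replicates 2 and 3, with an outlier spot at 1.57 in control replicate 1, against -1.40, -0.93 and -1.31 in the knockouts. Its difference was -2.44 (SE 0.21, adjusted p 0.0171; adjusted p 0.0580 without knockout replicate 3).

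The ligands Dll1 and Dll4 fell in the knockout colons by 2.08-fold and 2.21-fold, and they were the only ones of the 7 testable genes that passed the test. Of these 7, 6 had lower values in the knockout, against 48.8% of all 16451 named genes tested, and Notch1 had a higher one. Their median difference was -1.06, against 0.01 over all named genes; it was -0.54 over the 10 genes with marked spots kept and -0.67 without knockout replicate 1. The 2 called genes stand beside 3.82% of all named genes called, 2.47% lower and 1.35% higher; by probe, 2 of 8 were called, beside 3.97% of all tested probes, 2.42% lower. Unadjusted p was under 0.05 for 6 of the 7 genes and for 28.2% of all named genes. The knockouts lay below all controls at 6 of the 8 tested probes. Over all 30240 probes usable on 6 arrays, the groups did not overlap at 34.5%, with the knockouts below at 18.0%. Because the Notch genes were chosen with earlier results known, their counts and median carry no test. Jag1, Hes1 and Atoh1 had too few unmarked spots for a test and are given with the marked spots kept. In RNA of bulk samples, fewer cells of a type and less RNA per cell cannot be told apart.

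**Figure D1:**
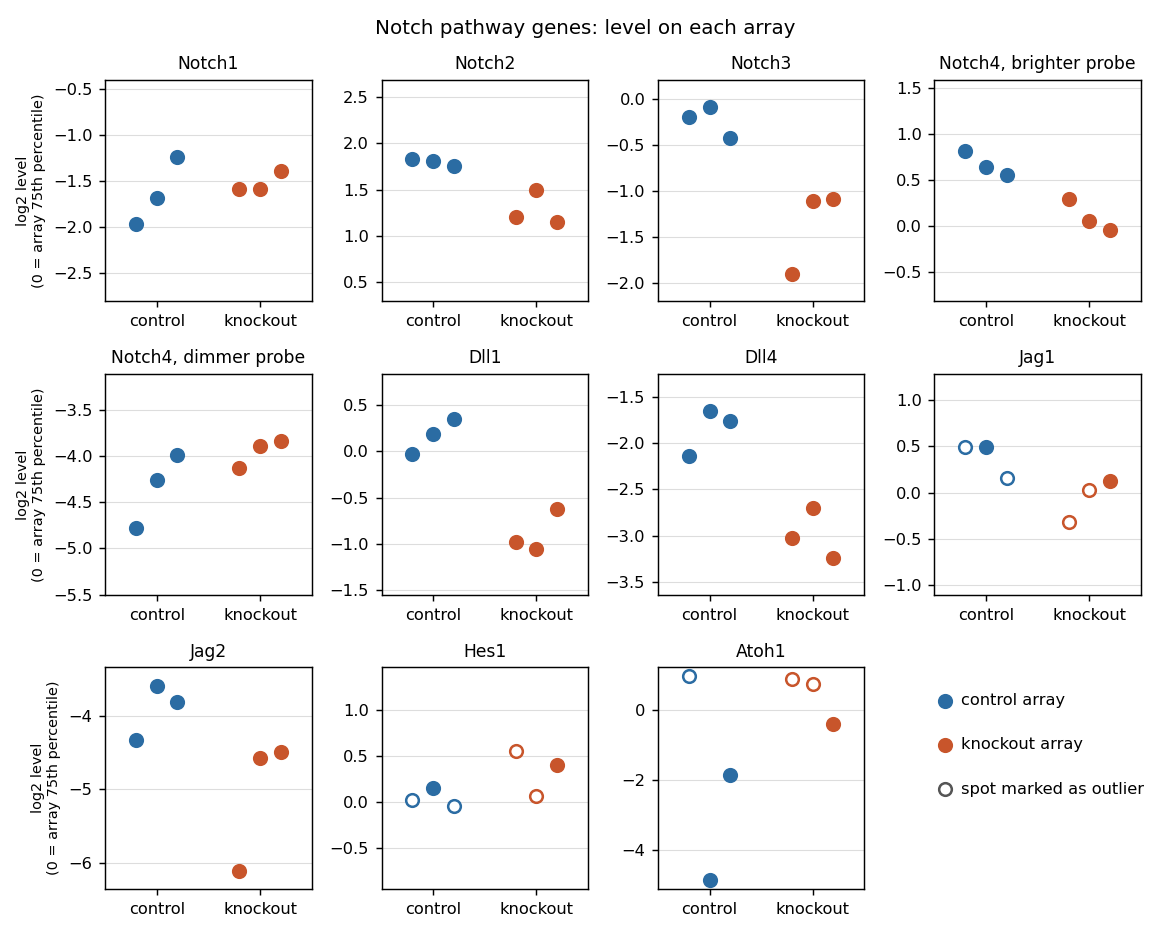
Level of each Notch gene on each array (log2 signal, 0 is the array's 75th percentile), with controls in blue and knockouts in orange, replicates 1 to 3 from left to right, and open circles for spots that the scanner software marked as outliers; the vertical axes differ between panels. The knockouts lie below all controls for Notch2, Notch3, the brighter Notch4 probe, Dll1, Dll4, Jag1 and Jag2, whereas Notch1, the dimmer Notch4 probe, Hes1 and Atoh1 overlap.

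Dll1, the Delta-like ligand that secretory precursors of the crypt present to their neighbours, had levels of -0.03, 0.18 and 0.35 in the control animals (replicates 1, 2 and 3, the order kept throughout) and of -0.98, -1.06 and -0.62 in the knockouts. Every knockout was below every control, and the gap between the nearest arrays was wider than the spread within either group. The difference was -1.06 (SE 0.19, 95% confidence interval -1.51 to -0.61), or 2.08-fold, with an adjusted p of 0.0416 in limma.

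Dll4, the Delta-like ligand of endothelial tip cells, which crypt cells also express, stood at -2.14, -1.65 and -1.75 in the controls and at -3.03, -2.70 and -3.24 in the knockouts. Again the groups did not overlap. Its difference was -1.14 (SE 0.21, 95% confidence interval -1.65 to -0.63), or 2.21-fold, with an adjusted p of 0.0441. Both calls lay close to the threshold. Leaving out control replicate 2 or 3, or knockout replicate 1 or 3, lost both (adjusted p 0.0821 to 0.133 over the 8 values). In these fits the differences were -1.19 to -0.97 for Dll1 and -1.12 to -1.02 for Dll4. The same fits called 40 to 263 probes in all, against 1403 in the main fit. Without knockout replicate 2 the call of Dll1 was lost (adjusted p 0.0699) and that of Dll4 was not (0.0466).

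The 250 bases before the annotated starts of Dll1 and Dll4 are shown because these were the 2 members called. They come from RefSeq on build GRCm38.p6, are written on the gene's strand from 5′ to 3′, and carry in capitals every CAGNTG, an E-box of the kind bound by Atoh1 and related factors, and every CACNAG, the N-box bound by Hes proteins, found on either strand. Dll1 has 2 annotated starts, 1109 bases apart.
Dll1, downstream start, chr17:15375824-15376073, minus strand: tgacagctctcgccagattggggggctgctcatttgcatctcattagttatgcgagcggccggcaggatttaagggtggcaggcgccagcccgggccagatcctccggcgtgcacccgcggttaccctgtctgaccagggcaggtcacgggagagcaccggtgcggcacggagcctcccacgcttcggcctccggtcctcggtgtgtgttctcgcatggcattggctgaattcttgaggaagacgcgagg
Dll1, upstream start, chr17:15376933-15377182, minus strand: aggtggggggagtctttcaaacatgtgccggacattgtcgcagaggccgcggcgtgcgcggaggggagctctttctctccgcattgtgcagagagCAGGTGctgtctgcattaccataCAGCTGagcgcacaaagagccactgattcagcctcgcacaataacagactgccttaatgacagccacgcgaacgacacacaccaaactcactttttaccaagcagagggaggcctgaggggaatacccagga
Dll4, chr2:119325534-119325783, plus strand: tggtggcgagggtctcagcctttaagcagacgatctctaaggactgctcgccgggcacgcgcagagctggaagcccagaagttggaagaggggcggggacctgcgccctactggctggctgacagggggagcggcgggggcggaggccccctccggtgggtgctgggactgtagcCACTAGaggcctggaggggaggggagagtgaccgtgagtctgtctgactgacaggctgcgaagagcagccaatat
The upstream Dll1 window held 2 matches to CAGNTG, the Dll4 window 1 match to CACNAG, and the downstream Dll1 window neither. The core of the RBPJ site, TGGGAA, was in none of these windows and in none of the 10 windows found for 9 of the 10 members. The member without a window was the target gene Hes1, which was therefore not searched. Of all 32851 RefSeq windows of the same length, 44.8% held CAGNTG, 36.7% CACNAG and 21.6% TGGGAA on either strand. A match describes letters in the window and is not evidence of binding.

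The Jagged ligands did not pass the test. Jag2 was a dim probe, at -4.32, -3.59 and -3.81 in the controls and -6.10, -4.58 and -4.49 in the knockouts. It was well above background on all 3 control arrays and on 2 of 3 knockout arrays, and knockout replicate 1 was by far the lowest. The difference was -1.15 (SE 0.46, 95% confidence interval -2.24 to -0.06, adjusted p 0.169), and it was -0.63 without knockout replicate 1.

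Jag1, a ligand of crypt and vascular cells, had unmarked spots only on control replicate 2 (0.50) and knockout replicate 3 (0.13). With the marked spots kept, its levels were 0.49, 0.50 and 0.16 in the controls and -0.32, 0.03 and 0.13 in the knockouts. The groups then did not overlap, although control replicate 3 and knockout replicate 3 were almost level. The difference was -0.44 (SE 0.19, 95% confidence interval -0.89 to 0.02), with an adjusted p of 0.197 in limma and an exact permutation p of 0.1, the smallest that 3 against 3 arrays can give.

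Among the receptors, Notch3 was the closest to the threshold. Notch3, the receptor of pericytes and vascular smooth muscle, had levels of -0.20, -0.09 and -0.43 in the controls and -1.89, -1.11 and -1.08 in the knockouts. No knockout reached a control, and knockout replicate 1 was lower than the other two. The difference of -1.12 (SE 0.26, 95% confidence interval -1.74 to -0.51) had an adjusted p of 0.0609. The same probe passed under quantile normalization (adjusted p 0.0467), median centring (0.0396), normexp background correction (0.0342) and array weights (0.0134), with differences of -1.01 to -1.09. These settings called 2185, 2249, 2773 and 9292 probes in all, against 1403 in the main fit. Notch3 did not pass in any fit with an array left out (0.0717 to 0.180), where 40 to 2114 probes were called.

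Notch2, a broadly expressed receptor that acts beside Notch1 in crypts, was at 1.83, 1.81 and 1.75 in the controls and at 1.21, 1.49 and 1.15 in the knockouts. The controls were tightly grouped and lay above all knockouts. The difference was -0.51 (SE 0.16, 95% confidence interval -0.89 to -0.14, adjusted p 0.1).

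Notch4, a receptor largely restricted to endothelium, gave probes that disagreed. The brighter probe stood at 0.82, 0.65 and 0.55 in the controls and 0.30, 0.06 and -0.04 in the knockouts, without overlap, a difference of -0.57 (SE 0.17, 95% confidence interval -0.96 to -0.17, adjusted p 0.0919). The dimmer probe stood at -4.78, -4.26 and -3.98 in the controls and -4.13, -3.89 and -3.84 in the knockouts, with overlap, a difference of 0.39 (SE 0.23, adjusted p 0.333), which was 0.17 without control replicate 1. The brighter minus the dimmer probe had a mean of 5.01 in controls and 4.06 in knockouts with no overlap between arrays (exact permutation p 0.1, the smallest possible), and the mean of both probes differed by -0.09 (adjusted p 0.697). Which transcripts each probe captures was not tested.

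Notch1, the main receptor of crypt stem cells and of endothelium, had a difference near 0. Its levels were -1.97, -1.68 and -1.24 in the controls and -1.59, -1.59 and -1.40 in the knockouts, so the knockouts lay inside the control range. The difference was 0.11 (SE 0.22, 95% confidence interval -0.41 to 0.62, adjusted p 0.788), and without control replicate 1 it was -0.06.

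**Figure D2:**
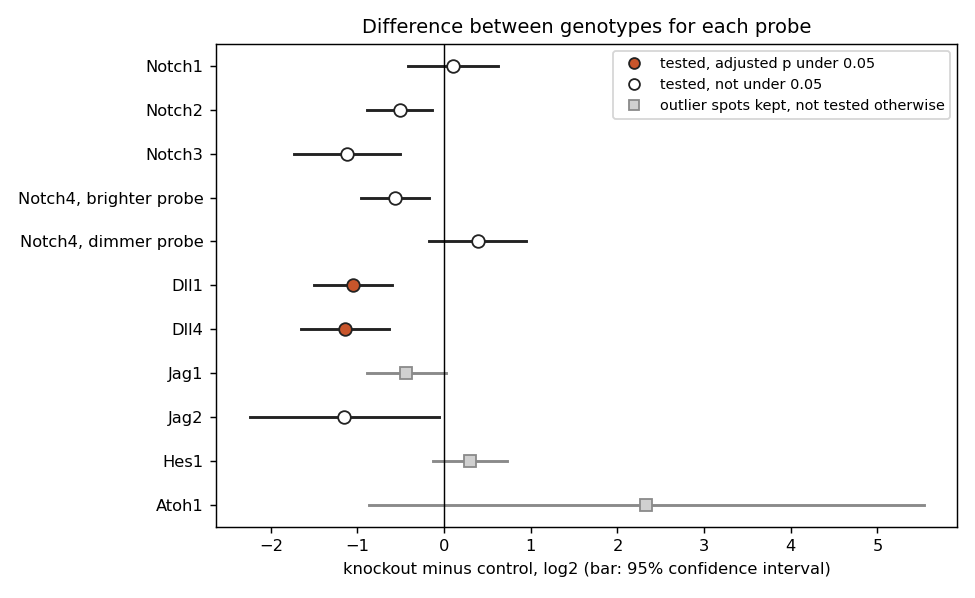
Difference between knockout and control for each Notch probe (log2, bars are 95% confidence intervals from limma). The intervals of Dll1 and Dll4 (filled circles, adjusted p under 0.05) end at -0.61 and -0.63; grey squares are Jag1, Hes1 and Atoh1 with marked spots kept, of which Atoh1 has the widest interval, from -0.87 to 5.53.

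Hes1 and Atoh1 are the output of the pathway in crypts. Hes1, the repressor that active Notch switches on, had unmarked spots only on control replicate 2 (0.15) and knockout replicate 3 (0.40). With marked spots kept it was at 0.03, 0.15 and -0.04 in the controls and 0.56, 0.07 and 0.40 in the knockouts. The lowest knockout lay inside the control range and the other two above it. The difference was 0.29 (SE 0.18, 95% confidence interval -0.13 to 0.72, adjusted p 0.335, exact permutation p 0.2), and it was 0.19 without knockout replicate 1.

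Atoh1, the transcription factor that commits crypt cells to the secretory lineage, varied more between control animals than between the group means. The control spots had processed signals of 12413, 242.3 and 1805 intensity units and the knockout spots of 9141, 9766 and 4325, with outlier marks on control replicate 1 and on knockout replicates 1 and 2, its brightest arrays. On the log2 scale the levels were 0.97, -4.87 and -1.86 in the controls and 0.90, 0.75 and -0.42 in the knockouts. Control replicate 1 was thus above every knockout and control replicate 2 far below. The difference was 2.33 (SE 1.34, 95% confidence interval -0.87 to 5.53, adjusted p 0.309, exact permutation p 0.4); it was 0.85 without control replicate 2 and 3.77 without control replicate 1.

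By its brightest tested probes, the rest of the pathway yielded 1 call. Of 106 other genes listed by role, among them 23 secretory genes that act after Atoh1, 104 were on the array by name and 90 could be tested. Of these, 53 were higher and 37 lower in the knockout, with a median difference of 0.09. The secretory list supplied 18 of the 53 higher genes and 1 of the 37 lower. The called gene was Id3, an inhibitor of basic helix-loop-helix factors and a target of both Notch and BMP signalling. Id3 fell from 1.68, 1.76 and 1.88 in the controls to 0.65, 0.91 and 0.60 in the knockouts, a difference of -1.05 (SE 0.16, adjusted p 0.0319). A dimmer probe was called for Poglut2 and for Gfi1, both described with their lists. The count of called genes by brightest tested probe, 1 of 90, stands below the 3.82% called over all named genes. It was 28 with array weights, a setting that called 9292 of all 35351 tested probes, against 1403 in the main fit. It was 0 without control replicate 2 or 3 or without knockout replicate 1 or 3, fits that called 40 to 263 probes.

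Other ligands and proteins that bind Notch (7 tested) had a median of -0.62, with 6 lower and 0 called; Dll3 was well above background on no array. The sugar transferases, proteases and gamma-secretase subunits that build and cut the receptor (14 tested) had a median of 0.14, with 8 higher, 6 lower and 0 called. Of the Fringe enzymes, which tune receptors between Delta-like and Jagged ligands, Mfng differed by -0.92 (SE 0.30, adjusted p 0.113), and Lfng was too dim to test. The brighter Lfng probe passed background on 2 control arrays and 0 knockout arrays, with means of -5.51 and -6.06. The dimmer Lfng probe passed on no array and went the other way, with means of -8.04 and -7.73. The dimmer probe of Poglut2, an O-glucosyltransferase, was called: it stood at -0.97, -1.09 and -1.04 in the controls and -2.29, -2.02 and -2.08 in the knockouts, a difference of -1.09 (SE 0.15, adjusted p 0.0277). Its brighter probe, with 2 usable arrays in each group, differed by -0.71 (SE 0.21, adjusted p 0.12). Trafficking and turnover genes (16 tested) had a median of -0.09, with 7 higher, 9 lower and 0 called. The nuclear complex and its corepressors (20 tested) had a median of 0.05, with 12 higher, 8 lower and 0 called. Rbpj, the DNA-binding partner of all 4 receptors, was at 0.36, 0.55 and 0.65 in the controls and 0.16, 0.05 and 0.24 in the knockouts, a difference of -0.37 (SE 0.15, adjusted p 0.183). These 4 lists had 0 calls in limma by brightest tested probe. In them unadjusted p was under 0.05 for 3 of 7 other ligands, 5 of 14 processing genes, 4 of 16 trafficking genes and 6 of 20 nuclear genes. The share over all named genes was 28.2%.

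Of 14 tested genes listed as targets 7 were higher and 7 lower, with a median of -0.08 and Id3 as the single call. Whether Notch induces each listed gene in this tissue was not tested. Beside 28.2% of all named genes, 6 of the 14 had an unadjusted p under 0.05, 3 of them higher. These 3 were Hes2, a Hes family repressor (1.87, SE 0.52, adjusted p 0.0847), Sox9, a factor of crypt base cells (1.52, SE 0.36, adjusted p 0.0649, and 1.27 at its dimmer probe), and Ccnd1, which encodes cyclin D1 (0.84, SE 0.27, adjusted p 0.108). The Hey repressors are the main Notch targets of blood vessels. Hey1 stood at -0.72, -0.43 and -0.72 in the controls and -1.62, -1.16 and -1.20 in the knockouts (difference -0.70, SE 0.19, adjusted p 0.0799). Hey2 differed by -0.74 (SE 0.30, adjusted p 0.178) and Heyl by -0.32 (SE 0.40, adjusted p 0.639); the groups did not overlap for Hey1 or Hey2, and without knockout replicate 1 the differences of Hey2 and Heyl were -0.42 and 0.16. Nrarp, a feedback inhibitor, differed by -0.33 (SE 0.19, adjusted p 0.316), and by -0.16 without control replicate 2. The brighter probe of Hes5, another Notch-induced repressor, gave a difference of 0.00 (SE 0.21, 95% confidence interval -0.51 to 0.51, adjusted p 0.995), with a sign that changed between settings, and its dimmer probe one of 0.68 (SE 0.16, adjusted p 0.0643).

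The secretory genes that act after Atoh1 were higher in the knockout at 18 of 19 tested members, with a median of 0.92 and 0 called in limma. Of the 19, 3 had an unadjusted p under 0.05, beside 28.2% of all named genes. Spdef, a goblet cell factor, had levels of 1.45, -2.71 and -0.68 in the controls and 1.47, 1.15 and 0.71 in the knockouts. Control replicate 2 was again far below and control replicate 1 level with the knockouts, as for Atoh1, and the difference of 1.76 (SE 0.96) had an adjusted p of 0.286. It was 0.73 without control replicate 2 and 2.81 without control replicate 1. Muc2, the goblet mucin, had the same order among the controls, at 3.25, 1.03 and 2.35 against 3.54, 3.02 and 3.07 (difference 1.0, SE 0.53, adjusted p 0.279). Its difference was 0.41 without control replicate 2 and 1.52 without control replicate 1. The probes of Gfi1, a repressor in goblet precursors that leukocytes also express, disagreed: the brighter differed by 0.58 (SE 0.32, adjusted p 0.296; 0.30 without knockout replicate 1) and the dimmer, well above background on 2 of 3 knockout arrays, by -1.29 (SE 0.21, adjusted p 0.0353). Neurog3, the endocrine factor, was well above background on 2 arrays of each group and was not tested.

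**Figure D3:**
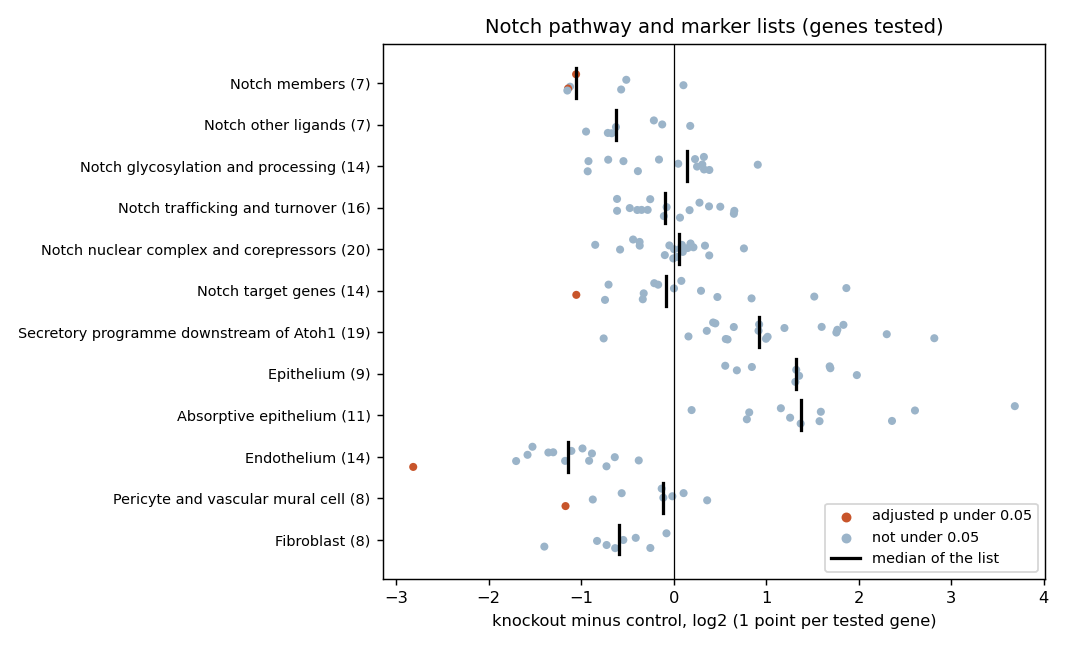
Difference between knockout and control (log2) for every tested gene of each Notch list and of 5 marker lists, with the number of tested genes in brackets, called genes in orange and the list's median as a black bar. The Notch genes described here have a median of -1.06 and the endothelial markers one of -1.14, whereas the target genes (-0.08) and the nuclear complex (0.05) lie near 0.

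Markers of the cell types that express these genes were measured on the same arrays. Endothelial markers had lower values in the knockout at 14 of 14 tested genes (median -1.14). Only Erg was called, at least 2.82-fold lower (adjusted p 0.0360), with 0 knockout arrays above background and measured means of -4.01 and -6.82. The mean level of the 15 markers was -0.30 to -0.05 over the control arrays and -2.20 to -0.86 over the knockout arrays. Pericyte and mural cell markers had a median of -0.12 over 8 tested genes, 6 lower and 2 higher, with Pdgfrb called (-1.17, SE 0.20, adjusted p 0.0395). The probes of Trpc6 disagreed: 2 dimmer ones were called (-2.36 and -2.53, adjusted p 0.0468 and 0.0441), and its brightest tested probe was not. By brightest tested probe, no gene of this list lay below the -1.17 of Pdgfrb. The mean of the mural list was 1.06 to 1.20 in controls and 0.40 to 0.84 in knockouts. Fibroblast markers were lower at 8 of 8 genes (median -0.59, 0 called), with means of 1.6 to 1.75 and 0.63 to 1.24. These calls stand beside 3.82% of all named genes called, 2.47% lower.

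Epithelial markers had higher values in the knockout. General epithelial genes did so at 9 of 9 tested genes (median 1.33, 0 called) and absorptive cell genes at 11 of 11 (median 1.37, 0 called). All 12 general markers were well above background on every array, so epithelial RNA was present in every sample labelled colon. Their mean level was 2.35, 0.30 and 1.83 in control replicates 1, 2 and 3 and 3.04, 2.68 and 2.66 in the knockouts, so control replicate 2, the array with the lowest Atoh1 signal, also had the lowest epithelial markers. Of 7 tested neutrophil markers 5 were lower and called (S100a8, S100a9, Cxcr2, Retnlg and Mmp8) and 2 were higher and not called, with a median of -3.73. Over all named genes, 3.82% were called, 2.47% lower. Medians were -0.78 for 7 macrophage genes, -0.89 for 6 B and plasma cell genes, -0.26 for 6 T cell genes, -0.44 for 6 enteric neuron and glia genes and 0.36 for 8 smooth muscle genes, with 0 called in each. Among the marker lists without a call in limma, unadjusted p was under 0.05 for 3 general epithelial, 3 absorptive, 5 fibroblast, 5 macrophage, 2 enteric neuron and glia, 2 smooth muscle, 0 B and plasma cell and 0 T cell genes. In the lists with a call, it was under 0.05 for 12 of 14 endothelial, 3 of 8 mural and 5 of 7 neutrophil genes. The share over all named genes was 28.2%.

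Each member was then read against the mean of a marker list on the same array, for 14 combinations chosen after the values were seen and with marked spots kept. Against the endothelial mean, Dll4 was at -2.04, -1.60 and -1.46 in the controls and -0.83, -1.84 and -2.08 in the knockouts. The groups overlapped, and the difference was 0.12 in place of -1.14 (exact permutation p 0.9, 0.9 after adjustment over the 14). The endothelial mean itself differed by -1.26, so subtracting it raises the difference of any member by that amount. Against the same mean Jag2 differed by 0.11 and Dll1 by 0.20 (exact permutation p 0.7 for each, 0.754 adjusted), while Notch1 differed by 1.37 and the brighter Notch4 probe by 0.69 (exact p 0.1 and 0.2, adjusted 0.233 and 0.35). Against pericyte and mural markers, Notch3 differed by -0.66 in place of -1.12, without overlap (exact p 0.1, adjusted 0.233). The mural mean itself differed by -0.46. Against fibroblast markers, Notch2 differed by 0.15 in place of -0.51 (exact permutation p 0.6, adjusted 0.754). On that scale Notch3 differed by -0.45 (exact permutation p 0.1, adjusted 0.233). The fibroblast mean itself differed by -0.67.

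Read against epithelial markers, the differences of Dll1 and Jag1 were larger. The epithelial mean itself differed by 1.30, so subtracting it lowers the difference of any member by that amount. Dll1 was at -2.38, -0.12 and -1.48 in the controls and -4.03, -3.74 and -3.28 in the knockouts, with no overlap. Its difference was -2.35 in place of -1.06 (exact permutation p 0.1, the smallest possible, adjusted 0.233). Jag1 differed by -1.73 in place of -0.44 (exact p 0.1, adjusted 0.233) and Hes1 by -1.0 in place of 0.29 (exact p 0.2, adjusted 0.35), so the sign for Hes1 depended on the scale. Atoh1 against the 23 secretory genes differed by 1.26 in place of 2.33 (exact p 0.3, adjusted 0.467), and against epithelial markers by 1.03 (exact p 0.5, adjusted 0.7). Dll1 against the secretory genes differed by -2.13 (exact permutation p 0.1, adjusted 0.233). The secretory mean itself differed by 1.07. In which cells each transcript was lower was not measured.

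**Figure D4:**
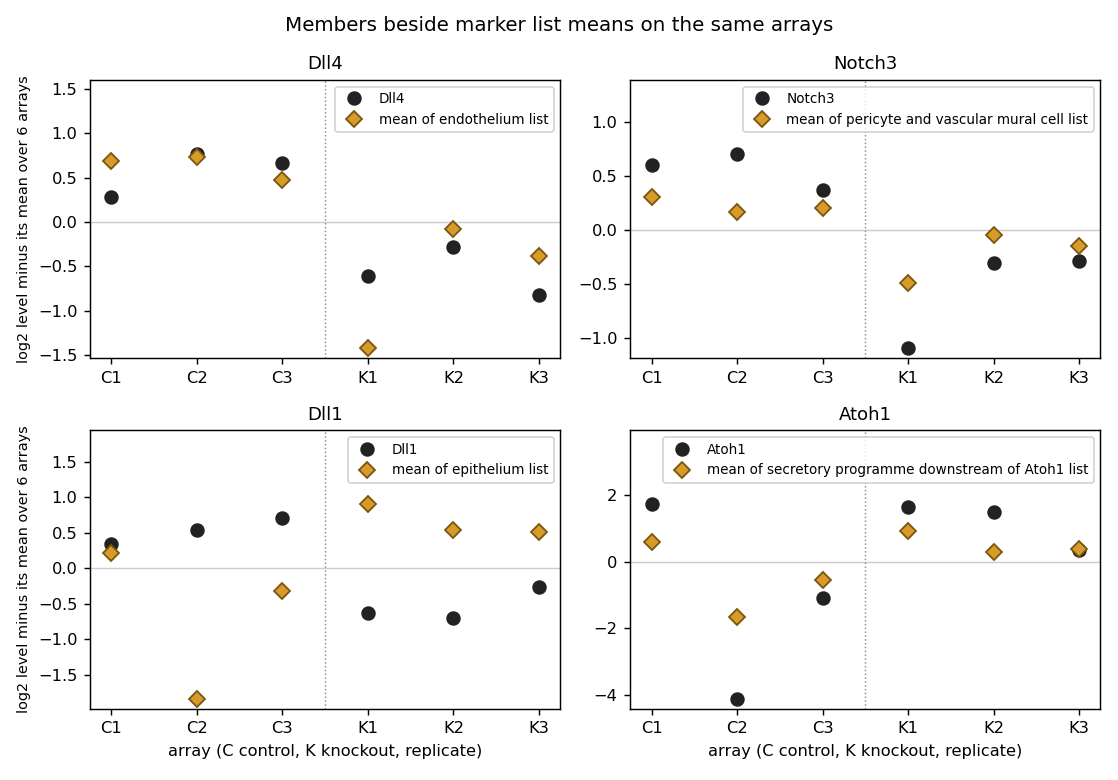
Level of Dll4, Notch3, Dll1 and Atoh1 on each array (black circles) beside the mean level of a marker list (yellow diamonds), both in log2 and minus their own mean over the 6 arrays; C and K are control and knockout replicates. Dll4 and the endothelial mean are both lower on the knockout arrays, Dll1 is lower on the knockout arrays, where the epithelial mean is higher, and Atoh1 and the secretory mean are both lowest in control replicate 2.

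Genes whose profile over the 6 arrays was most like that of a member were taken from 13673 named genes outside the member list, by the root-mean-square difference of levels centred on their mean. For Dll1 these were Moxd1 (0.0758), Ntn1 (0.111) and Slc26a11 (0.133). For Dll4 they were Slc22a4 (0.0992), Calhm2 (0.109) and Rapgef4 (0.112). For Notch3 they were Cdc42ep1 (0.0538), Rbms1 (0.0639) and Mroh7 (0.0764). All 9 were lower in the knockout, by -0.87 to -1.16, since a like profile includes a like difference between the groups.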

How the data were processed

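RNA from the colons of 6 mice was measured on 1 Agilent array per animal (design 074809), read with Feature Extraction 11.5.1.1 per the file headers; the submitters' processing notes name version 10.7, and the labels name Cy3 and a green signal, whereas the deposited scanner files hold a red channel only, which was used. The deposited processed signals are intensities on a linear scale, background-subtracted and detrended in Feature Extraction and not scaled between arrays, per the file headers. The deposited value table holds the same intensities averaged per probe and served as an alternative.

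Control spots were left out, signals were converted to log2, the array's 75th percentile was subtracted, spots marked non-uniform or population outlier were set missing, and spots of a probe were averaged. A probe was tested if well above background on all 3 arrays of a group with at least 2 usable values in each group (35351 of 56605). limma 3.58.1 in R 4.3.3 was fitted over all of these with genotype as the only term, two-sided; standard errors and intervals are limma's. Where a gene had several probes, the tested one with the highest mean stood for it, so a brighter probe with too few unmarked spots was passed over. Probes were named through RefSeq accessions in assembly GRCm38.p6 (33767 of 56605); the files' own annotation is on mm9, so the only coordinates given are those of the RefSeq promoter windows. Precision is limited by the number of arrays, 3 in each group. The procedure was tested on simulated data.

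The members and gene lists were chosen with earlier results of these data known, so list counts and medians carry no test. Named genes were the members, Islr, pathway genes called or listed in advance (Olfm4 was not analysed here), marker genes called, and the 3 nearest profiles of the 3 members with the lowest p. Further probes of Gfi1, Poglut2 and Trpc6, and the targets Hes2, Sox9 and Ccnd1, were named after their values were seen. Planned normexp correction of mean spot signals used the median signals instead.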

Additional observations from a re-analysis of the deposited data

How the results depend on the processing

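No paired analysis was possible because replicate numbers only name the animals in accession order. With array weights, Notch2 (-0.52), Notch3 (-1.01), the brighter Notch4 probe (-0.61) and Jag2 (-1.02) also passed. This gave 6 called Notch genes and 28 other pathway genes. The same setting called 9292 of 35351 probes, against 1403 in the main fit. Notch3 passed too under quantile normalization (-1.07), median centring (-1.09) and normexp correction (-1.08), which called 2185, 2249 and 2773 probes in all. Dll1 (-1.06) and Dll4 (-1.14) kept their values but lost their calls with no filter on dim probes, which left 0 Notch genes called, and with probes of a gene averaged (adjusted p 0.0541 and 0.0579). Without control replicate 1 and knockout replicate 1 together, a setting chosen after seeing the data, they were -1.10 and -1.27, with 0 Notch genes and 0 other pathway genes called. The median over the Notch genes was -0.54 with outlier spots kept, -0.81 for probes above background on all 6 arrays and -0.51 in the deposited value table. Other pathway genes called numbered 2 with median centring, with outlier spots kept and in the value table, and 3 with normexp.

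Leaving out 1 animal at a time, Dll1 ranged from -1.19 to -0.97, Dll4 from -1.29 to -1.02, Islr from -2.58 to -2.34 over the 4 fits that could be made (without control replicate 2 or 3, 1 usable control spot was left), the median over the Notch genes from -1.10 to -0.67, called Notch genes from 0 to 2 and other called genes from 0 to 3. Notch1 ranged from -0.064 to 0.30, Hes5 from -0.20 to 0.14 and Heyl from -0.57 to 0.16; without control replicate 1 and knockout replicate 1 they were -0.03, -0.20 and 0.13. Hes5 was -0.0081 with normexp and -0.14 with array weights. The cause was not tested. Over all probes, 40 to 9292 were called across settings, against 1403; the lowest was without knockout replicate 3 and the highest with array weights.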
